A study of Homo sapiens with 8 samples.

Results

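The 10 genes described here encode cohesin, the proteins that load, release and regulate it, and CTCF. They were found by exact match of their symbols, and all 10 were present among the 28265 genes counted. The cells were IMR90, primary human fetal lung fibroblasts. RNA was profiled by what the labels call factory RNA-Seq, an approach that enriches RNA still attached to transcription factories. The extraction text in the labels describes whole-cell RNA with poly(A) selection instead, so nascent and mature RNA cannot be told apart in these exon counts, and the values are given below as RNA levels. The control libraries (labelled "young") came from low-passage untreated cells, and the treated ones from low-passage cells given inflachromene (ICM), a small molecule that binds the chromatin proteins HMGB1 and HMGB2, for 3 days or 6 days. The remaining group, MetaICM, was low-passage and treated as well, but what MetaICM stands for was not given in the sources used here. Each of the 4 groups held 2 libraries, 8 in all, and all came from IMR90 cells. Nothing in the labels says that replicates were separate cultures, so p-values measure only the spread between these libraries, which may be technical.

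Cohesin is a ring of SMC1A, SMC3 and the kleisin RAD21 that holds sister chromatids together in dividing cells and extrudes chromatin loops in interphase. STAG1 or STAG2 binds the ring, NIPBL loads it, WAPL releases it, and the paralogs PDS5A and PDS5B act with either WAPL or the acetyltransferases that lock cohesin on chromatin. CTCF is a zinc finger protein that stops extruding cohesin and so anchors loops and domain borders. The comparisons ask how the RNA of these genes stood in control cells, along ICM treatment and in MetaICM.

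The libraries held from 12095123 to 23166405 counted read pairs, with a median of 18642270. Log2 levels over 16591 genes correlated between replicates with Pearson's r from 0.984 in control to 0.993 in MetaICM, and each library's closest partner was the other of its group. The summed level of 8 fibroblast markers was 53103 to 59136 CPM (counts per 1000000, after normalization) in control, 26001 to 26809 after 3 days, 20205 to 20442 after 6 days and 33225 to 36260 in MetaICM, with none of the 8 at 0. Much of this sum was FN1, with means of 35305, 13894, 10321 and 16308 CPM in the same order of groups. COL1A1 had 8448, 3602, 1883 and 5873 CPM, COL1A2 6912, 4373, 3675 and 6580 CPM, and PDGFRB 410, 204, 157 and 408 CPM. Of the 8 markers, 5 were called lower after 3 days, and 5 of the 7 tested were called lower after 6 days. At both times 0 were called higher. COL3A1 had 3097, 2885, 2941 and 2473 CPM, and VIM 1832, 1380, 1271 and 2950 CPM. S100A4 had at most 0.874 CPM in any library. Among markers of other cell types, 6 epithelial genes summed to at most 103 CPM in any library. Of these, KRT18 was called lower after 3 and 6 days (log2FC −1.27 and −1.33), as was KRT19 (−3.11 and −4.37). Neither was called against control in MetaICM. The 5 endothelial genes summed to 130 to 234 CPM, nearly all of it from TEK (125 to 231 CPM), while PECAM1 and CDH5 had at most 0.446 and 0.0829 CPM. After 6 days 1 endothelial gene was called higher, VWF, with a mean of 4.70 CPM beside 2.50 CPM in control. The 6 leukocyte genes summed to 5.14 to 6.54 CPM in control, 18.3 to 22.3 CPM after 3 days, 18.1 to 21.7 CPM after 6 days and 14.3 to 14.8 CPM in MetaICM. Of these, CD68 was called higher in each treated group (log2FC 1.92, 1.90 and 1.41). CD14 was also called higher in MetaICM (1.44), from 0.357 and 0.580 CPM in control to 1.09 and 1.39 CPM. PTPRC had at most 1.29 CPM and CD3E 0 in all 8 libraries. The part of these markers in the results was not tested. A gene was called when its adjusted p was under 0.05 and its log2 fold change (log2FC) exceeded 0.6 in either direction, in the quasi-likelihood test of edgeR, with p-values adjusted over all genes tested by the method of Benjamini and Hochberg (BH). Standard errors (SE) and 95% intervals of a log2FC come from the same fits.

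The core ring genes fell together. In ICM-treated cells SMC1A, SMC3 and RAD21 were each called lower at both times, whereas STAG1, STAG2, NIPBL, WAPL, PDS5A and PDS5B were called at neither. CTCF was called lower after 6 days and missed the fold cutoff after 3 days. After 3 days 3 of the 10 members were called lower, against 13.2% of the 15692 genes tested, and after 6 days 4 of 10, against 17.2% of 15950 genes. At both times 5 of 10 had an adjusted p under 0.05, against 29% and 42.2% of all genes, and 8 and 9 of 10 had libraries that did not overlap with control, against 65.5% and 72.6%. In both comparisons 0 members were called higher, against 8.85% and 13.3% of all genes. The members' median log2FC was −0.34 after 3 days and −0.38 after 6 days, beside 0.01 and −0.00 over all genes tested. With library totals in place of TMM normalization, the split of all 3-day calls moved from 1389 higher and 2067 lower to 1785 higher and 1767 lower, and SMC1A, SMC3 and RAD21 were still the members called. In bulk libraries, fewer cells of a type and less RNA per cell cannot be told apart.

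SMC1A, on chromosome X of hg19 (53401070 to 53449677, minus strand), encodes one of the coiled-coil ATPase arms of the ring. It received 207 and 185 CPM in control, 93.3 and 102 CPM after 3 days, 87.2 and 86.3 CPM after 6 days and 152 and 165 CPM in MetaICM. All ICM libraries lay below the control and MetaICM libraries, and MetaICM lay between. Its log2FC against control was −1.01 after 3 days (SE 0.13, BH-adjusted p = 8.15e-05 in edgeR) and −1.18 after 6 days (SE 0.11, BH-adjusted p = 1.82e-05), a level 50.3% and 55.9% below control. With each library left out in turn, the 3-day value stayed between −1.11 and −0.92.

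SMC3, the other ATPase arm (chromosome 10, 112327449 to 112364392, plus strand), had 140 and 121 CPM in control, 79.1 and 69.6 CPM after 3 days, 68.0 and 65.7 CPM after 6 days and 115 and 113 CPM in MetaICM. Here too the ICM libraries did not overlap with any other. The log2FC was −0.82 after 3 days (SE 0.13, BH-adjusted p = 0.000719 in edgeR) and −0.97 after 6 days (SE 0.12, BH-adjusted p = 0.000101), or 43.3% and 49.1% below control. RAD21, the kleisin that closes the ring and is cut by separase at anaphase, lies on chromosome 8 (117858173 to 117887015, minus strand). Of its 3660 exon bases, 49 are shared with MIR3610 on the same strand and 166 with RAD21-AS1 on the opposite strand, which counting without strand cannot tell apart. Its levels were 139 and 165 CPM in control, 86.2 and 92.6 CPM after 3 days, 80.3 and 83.0 CPM after 6 days and 108 and 112 CPM in MetaICM. The control libraries of RAD21 differed more from each other than those of the treated groups, yet both lay above all others. RAD21 fell by a log2FC of −0.77 after 3 days (SE 0.13, BH-adjusted p = 0.00106 in edgeR) and −0.90 after 6 days (SE 0.12, BH-adjusted p = 0.000237), or 41.2% and 46.3%.

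**Figure D1:**
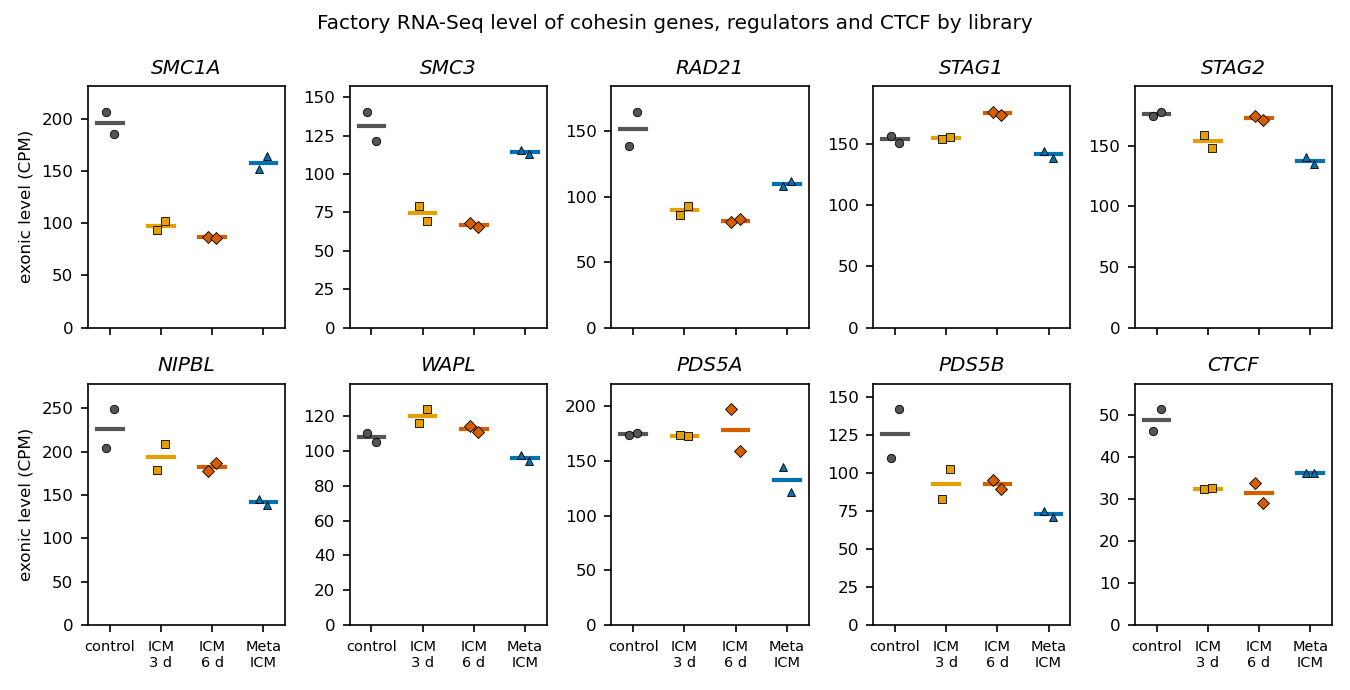
Exonic factory RNA-Seq level (CPM, linear axis from 0, 1 panel per gene) in the 8 libraries by group, with points for libraries and bars for the mean of 2. SMC1A, SMC3 and RAD21 drop in both ICM groups and stand higher in MetaICM, while STAG1, STAG2, WAPL and PDS5A stay near control under ICM.

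The STAG subunits, of which each ring carries 1, were not called under ICM. STAG1 (chromosome 3, 136055078 to 136471220, minus strand) had 156 and 151 CPM in control, 154 and 156 CPM after 3 days and 176 and 174 CPM after 6 days. Its 6-day libraries stood above all others, but the log2FC of 0.18 (95% interval from −0.05 to 0.42) was not called, with BH-adjusted p = 0.186 in edgeR, and at 3 days the log2FC was 0.01 (interval from −0.25 to 0.26). STAG2 (chromosome X, 123094410 to 123236505, plus strand) had 175 and 178 CPM in control, 159 and 148 CPM after 3 days and 175 and 171 CPM after 6 days. Its log2FC was −0.20 at 3 days (95% interval from −0.46 to 0.06) and −0.03 at 6 days (interval from −0.27 to 0.20). These 4 intervals lie inside the 0.6 cutoff on either side. Of the 6609 exon bases of STAG2, 30 are shared with a transcript on the opposite strand.

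Among the regulators, WAPL and PDS5A stayed close to control under ICM. WAPL, the release factor (chromosome 10, 88195013 to 88281549, minus strand), had 110 and 105 CPM in control, 116 and 124 CPM after 3 days and 115 and 111 CPM after 6 days, with a log2FC of 0.15 (95% interval from −0.11 to 0.41) and 0.06 (interval from −0.18 to 0.30). PDS5A (chromosome 4, 39824483 to 39979576, minus strand) had 174 and 176 CPM in control, 173 and 173 CPM after 3 days and 197 and 159 CPM after 6 days, with a log2FC of −0.02 (interval from −0.28 to 0.24) and 0.02 (interval from −0.25 to 0.30). The 6-day libraries of PDS5A lay on either side of control.

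NIPBL and PDS5B sat lower under ICM without passing both cutoffs. NIPBL, the loader (chromosome 5, 36876871 to 37066515, plus strand), had 204 and 249 CPM in control, 178 and 208 CPM after 3 days and 177 and 187 CPM after 6 days. The 3-day libraries overlapped with control and the 6-day ones did not, and the log2FC was −0.23 (BH-adjusted p = 0.235 in edgeR) and −0.32 (adjusted p = 0.0614). The control libraries of NIPBL differed, and these values became −0.36 and −0.46 without control replicate 1 and −0.10 and −0.17 without control replicate 2. PDS5B (chromosome 13, 33160589 to 33352157, plus strand) had 110 and 142 CPM in control, 82.8 and 103 CPM after 3 days and 95.4 and 89.6 CPM after 6 days. Its log2FC was −0.44 after 3 days (95% interval from −0.78 to −0.11, BH-adjusted p = 0.0497 in edgeR) and −0.45 after 6 days (interval from −0.75 to −0.14, BH-adjusted p = 0.0236). The control libraries of PDS5B differed, and without control replicate 1 PDS5B was called lower at both times, with a log2FC of −0.61 and −0.63, whereas without control replicate 2 the values were −0.27 and −0.25. STAG1 and STAG2, and PDS5A and PDS5B, are paralog pairs, so read pairs that fit both copies could be counted on either.

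CTCF (chromosome 16, 67596429 to 67673088, plus strand) had the lowest level per kilobase of exon of the 10 in every group. It received 46.2 and 51.4 CPM in control, 32.4 and 32.6 CPM after 3 days, 33.9 and 29.2 CPM after 6 days and 36.1 and 36.1 CPM in MetaICM. Both control libraries lay above the other 6. The log2FC was −0.59 after 3 days (SE 0.14, BH-adjusted p = 0.00777 in edgeR), just short of the 0.6 cutoff, and −0.63 after 6 days (SE 0.13, BH-adjusted p = 0.00365), just past it. The 3-day value was −0.66, and called, without control replicate 1. At 6 days the call was lost without control replicate 2 (−0.55), without ICM 6 days replicate 2 (−0.52) and with library totals (−0.59), while the calls on SMC1A, SMC3 and RAD21 held at both times with any 1 library left out.

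**Figure D2:**
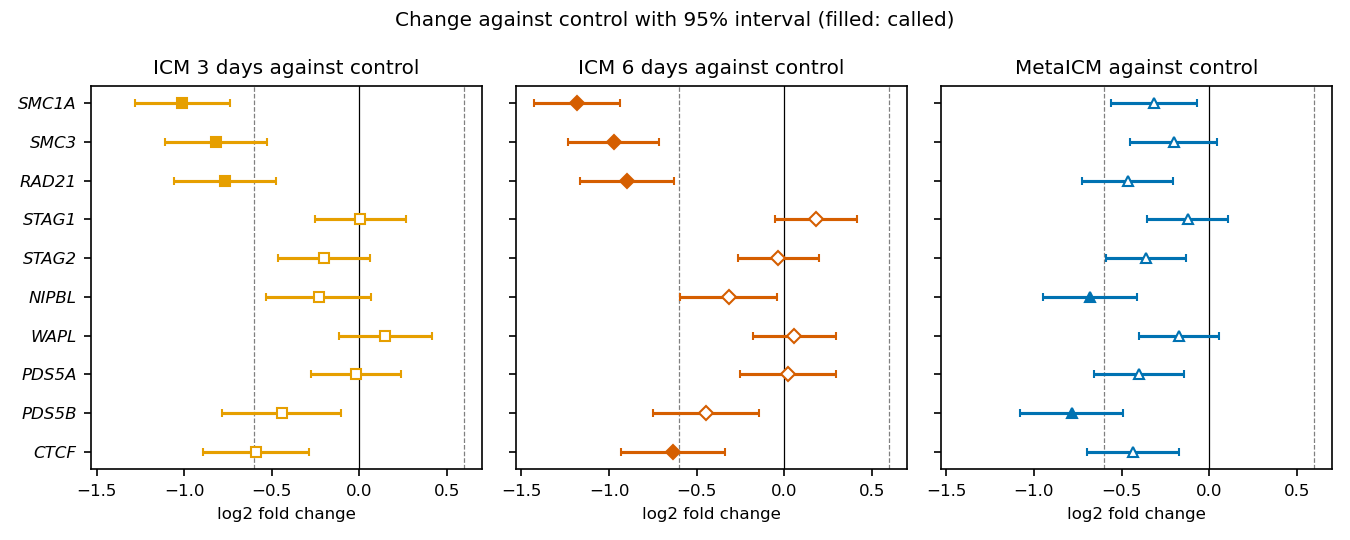
Log2 fold change of each member against control (horizontal axis) for ICM 3 days, ICM 6 days and MetaICM, with 95% intervals from edgeR, dashed lines at 0.6 in either direction and filled symbols for called genes. Under ICM the filled symbols are the ring genes, joined by CTCF at 6 days, and in MetaICM they are NIPBL and PDS5B.

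No member was called between 3 and 6 days of ICM. In edgeR 0 of 10 members were called, against 8.07% of 15845 genes, 0 passed an unadjusted p under 0.05 and DESeq2 called 0 as well. The ring genes were lower by sign at 6 days, with a log2FC of −0.17 for SMC1A (95% interval from −0.37 to 0.02), −0.16 for SMC3 (interval from −0.37 to 0.05) and −0.13 for RAD21 (interval from −0.33 to 0.06). STAG1 and STAG2 had 0.17 (interval from −0.01 to 0.35) and 0.16 (interval from −0.02 to 0.35). Those 5 intervals include 0, and the smallest adjusted p among the members was 0.173 (STAG1, edgeR with BH adjustment).

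MetaICM differed from ICM in which members were called lower against control. The difference lay in calls, as the members called in MetaICM, NIPBL and PDS5B, were not called in MetaICM against either ICM time. Against control, the 2 members called lower were NIPBL and PDS5B, against 8.99% of 15904 genes, and 0 were called higher, against 7.41%. All 10 members lay lower by sign, with a median log2FC of −0.38 beside −0.00 over all genes, and 6 of 10 had an adjusted p under 0.05, against 27% of all genes. NIPBL had 145 and 138 CPM in MetaICM, below its lowest control and ICM libraries, and a log2FC of −0.68 (SE 0.12, BH-adjusted p = 0.00373 in edgeR). PDS5B, at 75.0 and 71.1 CPM, was likewise lowest in MetaICM, with a log2FC of −0.78 (SE 0.13, BH-adjusted p = 0.00296). Without control replicate 2 both calls were lost on the fold cutoff (−0.53 for NIPBL, −0.59 for PDS5B). Without MetaICM replicate 2 NIPBL stayed past the fold cutoff (−0.63) but lost its call on the adjusted p. RAD21 (−0.47), CTCF (−0.44), PDS5A (−0.40) and STAG2 (−0.36) had an adjusted p from 0.0157 to 0.0286 in the same test but missed the fold cutoff. SMC1A had −0.31 (BH-adjusted p = 0.0579 in edgeR) and SMC3 −0.20 (adjusted p = 0.202).

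The other members complete this picture. STAG1 had 144 and 139 CPM in MetaICM and a log2FC of −0.12 against control, with a 95% interval from −0.35 to 0.11. WAPL had 97.7 and 94.3 CPM and −0.17, with an interval from −0.40 to 0.06. PDS5A had 144 and 122 CPM and STAG2 had 141 and 135 CPM. For each of the 10 members the MetaICM libraries did not overlap with control, against 68.3% of all genes without overlap.

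Set directly against ICM, MetaICM had higher SMC1A and SMC3. Against 6 days of ICM, 2 members were called higher, SMC1A and SMC3, against 15.7% of 16036 genes, and 0 lower, against 12%. SMC1A had a log2FC of 0.87 (SE 0.07, BH-adjusted p = 2.37e-09 in edgeR), SMC3 0.77 (SE 0.07, adjusted p = 1.25e-08) and RAD21 0.43 (SE 0.07, adjusted p = 3.58e-05), short of the fold cutoff. In all, 9 of 10 members had an adjusted p under 0.05, against 53.5% of all genes, CTCF (0.20, BH-adjusted p = 0.0743 in edgeR) being the other. STAG1, STAG2, NIPBL, WAPL, PDS5A and PDS5B each lay lower, by a log2FC from −0.42 for PDS5A to −0.23 for WAPL, with an adjusted p of at most 0.00995 in the same test, and none reached the cutoff. Against 3 days of ICM, SMC1A (0.70, BH-adjusted p = 1.59e-05 in edgeR) and SMC3 (0.62, adjusted p = 6.38e-05) were the 2 members called, both higher, against 13.1% of 16209 genes, and 0 were called lower, against 10.3%. SMC3 lost that call without ICM 3 days replicate 2 (0.53) and with library totals (0.56). The MetaICM comparisons share libraries with those of ICM and are given side by side, not as separate evidence.

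Within each library, ratios between members remove the library's own scaling. They were taken on levels per kilobase of exon (CPM per kb), the scale on which genes of different length can be compared. In control, the members' level ran from 12.5 ± 0.935 CPM per kb (SD, n = 2) for CTCF to 41.4 ± 5.01 for RAD21, which placed them at percentiles 76.4 to 94.3 of 16591 genes. SMC1A, SMC3 and RAD21 made up 40.3% and 38.9% of the summed CPM per kb of the 10 members in control, 29.2% and 28.5% after 3 days, 25.6% and 26.8% after 6 days and 39.4% and 41.4% in MetaICM. The ICM libraries did not overlap with the others in this share. With 2 libraries against 2, the smallest two-sided p of an exact permutation test is 0.333, so the shares and ratios are given as values.

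The log2 ratio of STAG1 to STAG2 was −0.04 and −0.11 in control and above 0 in the other 6 libraries, at 0.07 and 0.20 after 3 days, 0.14 and 0.15 after 6 days and 0.16 and 0.17 in MetaICM. PDS5A to PDS5B was likewise higher outside control, from 0.64 and 0.29 in control to 1.04 and 0.72, 1.02 and 0.80, and 0.92 and 0.75. Its differences from control of 0.42, 0.45 and 0.37 were 0.60, 0.63 and 0.55 without control replicate 1 and 0.24, 0.27 and 0.19 without control replicate 2. For the loader against the release factor, NIPBL to WAPL, the log2 ratio was 0.09 and 0.44 in control, −0.18 and −0.05 after 3 days, −0.17 and −0.04 after 6 days and −0.23 and −0.25 in MetaICM. In these 3 ratios no treated library overlapped with control. The control libraries differed in NIPBL to WAPL, so the difference at 6 days of −0.37 became −0.55 without control replicate 1 and −0.19 without control replicate 2. The 3-day and MetaICM differences of −0.38 and −0.50 moved likewise, to −0.55 and −0.68 without control replicate 1 and to −0.20 and −0.32 without control replicate 2.

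Inside the ring, SMC1A to SMC3 was −0.71 and −0.66 in control and lower in the other libraries, from −1.03 in ICM 3 days replicate 1 to −0.72 in ICM 3 days replicate 2. That 3-day difference of −0.19 was −0.35 without replicate 2 of ICM 3 days and −0.03 without replicate 1. RAD21 to SMC3 ranged from 0.15 to 0.61 between the control libraries, and its direction under ICM changed with the control library left out (at 6 days −0.15 without replicate 1 and 0.31 without replicate 2). CTCF to RAD21 was −1.67 and −1.77 in control, −1.50 and −1.60 after 3 days, −1.33 and −1.60 after 6 days and −1.67 and −1.72 in MetaICM. Without ICM 6 days replicate 1 its 6-day difference of 0.26 was 0.13, and without ICM 6 days replicate 2 it was 0.39.

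**Figure D3:**
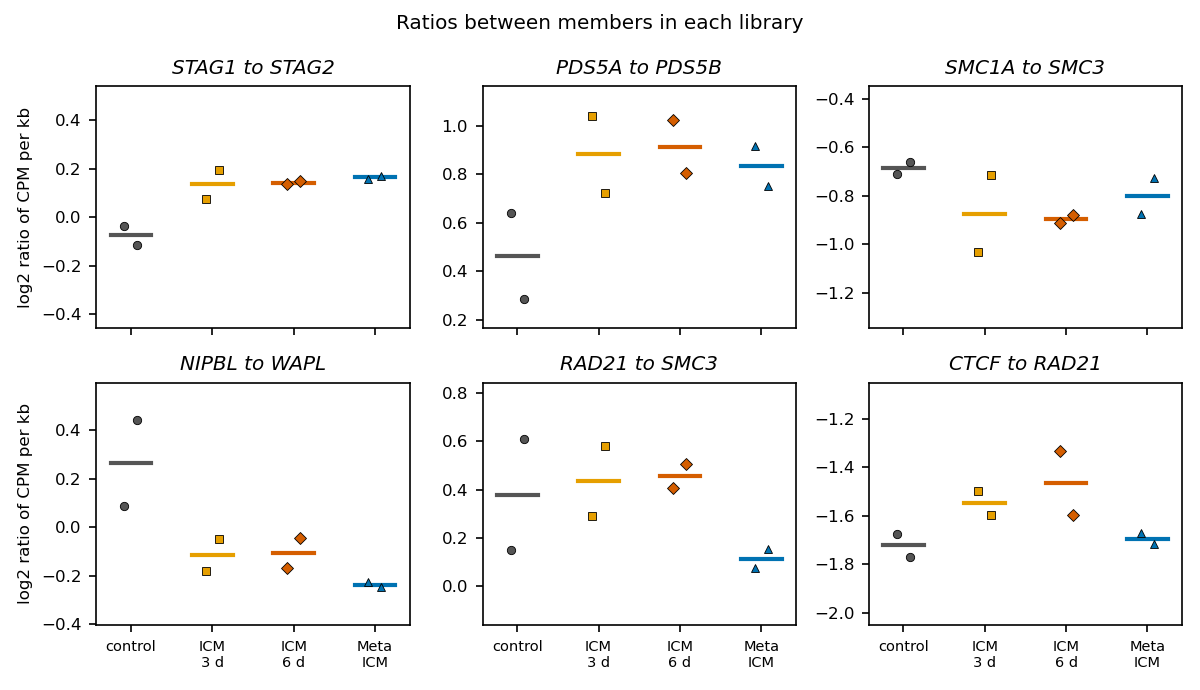
Log2 ratio of CPM per kb between pairs of members (vertical axes of equal span) in each library by group, with points for libraries and bars for group means. STAG1 to STAG2 and PDS5A to PDS5B sit above control, and NIPBL to WAPL below it, in all 6 treated libraries.

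Many other genes of the cohesin cycle fell under ICM as well, most of them by a larger log2FC than the ring genes. Among 19 genes for cohesion establishment, protection and cleavage, 18 could be tested, 15 were called lower after 3 days and 14 after 6 days, and 0 were called higher. Their median log2FC was −2.22 and −2.24, beside 0.01 and −0.00 over all genes. PLK1, a mitotic kinase that helps strip cohesin from chromosome arms, had −3.57 and −3.77. CDCA5 (sororin, which protects cohesion) had −2.42 and −3.64, ESCO2, the S phase SMC3 acetyltransferase, −3.02 and −3.44, and the centromeric protector SGO1 −3.42 and −2.96, with 465 of its 3735 exon bases shared with an opposite-strand gene. All 8 of these values were called in edgeR with BH adjustment. ESCO1, HDAC8 and MAU2 were called at neither time. ESCO1, the acetyltransferase that acts through interphase, had −0.05 and −0.07, HDAC8, the SMC3 deacetylase, 0.06 and −0.05, and MAU2, the partner of NIPBL, 0.35 and 0.33. The fork protein TIPIN was called after 3 days (−0.75) and not after 6 days (−0.13). CHTF8 had 0 counts in all 8 libraries, and all of its 2992 exon bases are shared with another gene on its strand.

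In MetaICM 3 of the 18 were called lower, PLK1 (−0.64), SGO1 (−1.02) and SGO2 (−0.62), with a median log2FC of −0.43, and against 6 days of ICM 14 were called higher. That count of 3 was 0 without MetaICM replicate 1 and 1 without MetaICM replicate 2.

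**Figure D4:**
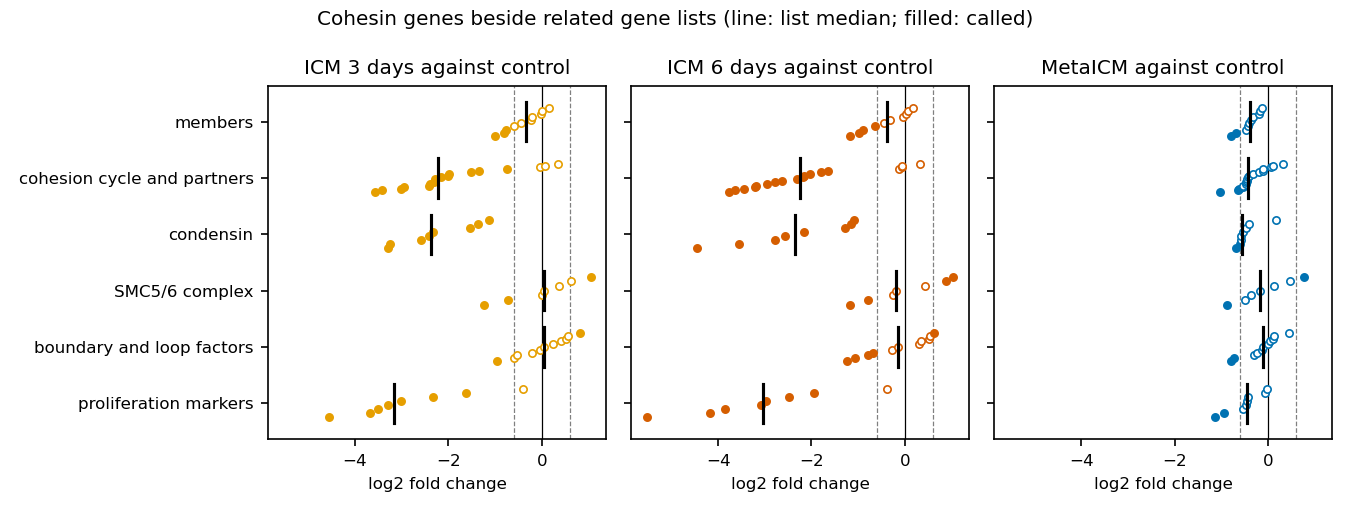
Log2 fold change against control (horizontal axis) of the members and 5 related gene lists for ICM 3 days, ICM 6 days and MetaICM, with 1 point per tested gene, filled where called, and a line at each list's median. Genes of the cohesion cycle, condensin and proliferation lie far to the left under ICM and closer to 0 in MetaICM, and under ICM the median of the members lies between theirs and 0.

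Condensin and SMC5/6 are the other complexes built on SMC proteins. Condensin compacts chromosomes for mitosis, and all 8 of its genes were called lower at both times, with a median log2FC of −2.37 and −2.36. NCAPH had −3.30 and −4.44, NCAPG −3.26 and −3.56, NCAPD2 −2.60 and −2.79 and NCAPG2 −2.41 and −2.56. Of the 4586 exon bases of NCAPG, 1633 overlap exons of an opposite-strand gene. The condensin gene nearest to 0 at both times was NCAPH2, with −1.12 and −1.08. In MetaICM 2 were called lower, NCAPH (−0.69) and SMC4 (−0.60), but 0 were called without MetaICM replicate 1 or 2, and 1 with library totals, with either other filter or with all libraries in 1 fit. SMC5/6, which acts in DNA repair, was mixed, with a median of 0.04 and −0.18 over its 7 genes. SMC6 (−1.25 and −1.18) and NSMCE4A (−0.72 and −0.80) were called lower at both times, and EID3 (1.04 and 0.88) was called higher. NSMCE3 had 0.63 after 3 days (BH-adjusted p = 0.0600 in edgeR) and was called after 6 days (1.02), while SMC5 had −0.00 and −0.18. With library totals, with all genes kept or with 1 fit of all libraries, 2 were called higher at 3 days. An adjusted p under 0.01 left 1 called lower at 3 days and 0 called higher in MetaICM. The 3-day count of 1 called higher was 3 without control replicate 1 and 2 without ICM 3 days replicate 2, and the count of 2 called lower was 1 without ICM 3 days replicate 1 and, at 6 days, without ICM 6 days replicate 1. In MetaICM 1 was called higher (NSMCE3, 0.77) and 1 lower (EID3, −0.87), and 2 higher without control replicate 1, 2 lower without control replicate 2 and 0 higher without MetaICM replicate 2.

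Around CTCF, 12 further boundary and loop factors were examined, of which 11 could be tested. After 3 days 1 was called higher, the zinc finger factor ZNF143 (0.83), and 1 lower, PATZ1 (−0.95), against 8.85% and 13.2% of all genes. After 6 days ZNF143 (0.61) was called higher, and PATZ1 (−1.24), MAZ (−0.80) and ADNP (−0.68) were among those called lower. Their median was 0.05 and −0.14. With any 1 library left out, the count called higher was 0 to 3 at either time and that called lower 1 to 2 at 3 days. In MetaICM ADNP (−0.73) was called lower, and 0 were called higher, or 1 without control replicate 1. YY1, which links enhancers and promoters, had 0.24 and 0.30 under ICM and was not called. CTCFL, the germline paralog of CTCF, had at most 2 counts in a library and was not tested.

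Among the germline cohesin genes, RAD21L1 and SMC1B were low. RAD21L1 had at most 7 counts in a library and was not tested. SMC1B, the meiotic counterpart of SMC1A, had 1.61 and 2.98 CPM in control and at most 1.48 CPM elsewhere, and was called lower after 6 days (−1.26) and in MetaICM (−1.43). REC8, the meiotic kleisin, had 10.6 and 8.70 CPM in control, 10.3 and 10.3 CPM after 3 days, 4.24 and 4.25 CPM after 6 days and 8.17 and 7.78 CPM in MetaICM, and was called lower after 6 days (−1.19). STAG3, with 4.14 to 7.04 CPM, was called in no comparison with control. Of the 2 germline genes called lower at 6 days, 1 was left with all genes kept or with an adjusted p under 0.01. At that cutoff 0 were left in MetaICM. These 2 calls at 6 days were 1 with DESeq2, without control replicate 2 or without ICM 6 days replicate 1. SMC1B was not called in MetaICM with DESeq2, without control replicate 2 or without MetaICM replicate 1, and without control replicate 1 germline cohesin had 1 call lower at 3 days.

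Proliferation markers were also lower under ICM than in control and MetaICM. The summed level of 8 such genes was 1839 to 1916 CPM in control, 179 to 197 CPM after 3 days, 156 to 158 CPM after 6 days and 1059 to 1063 CPM in MetaICM, and 7 of 8 were called lower at each ICM time, with PCNA (−0.40 and −0.38) not called. In MetaICM 2 of 8 were called, MKI67 (−1.13) and TOP2A (−0.95). None of the 8 was at 0 in any group. The ring genes, at 41.2% to 55.9% below control under ICM, fell less than 7 of these markers and more than PCNA (24.0% and 22.9% below control). Such a drop under ICM with higher levels in MetaICM was not limited to proliferation genes. The fibroblast markers COL1A1, COL1A2 and PDGFRB had it too, while COL3A1 did not. The part of proliferation in the levels of the members was not tested.

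Genes with the most similar pattern were sought over the 8 libraries by the root-mean-square (RMS) difference of log2 levels, each centred on its own mean, as a description with no test. SMC1A was closest to ARHGEF2 (0.05) and SPTLC2 (0.07), against a median of 0.58 over 16591 genes. ARHGEF2 had a mean of 286 CPM in control, 144 CPM after 3 days, 125 CPM after 6 days and 243 CPM in MetaICM. SMC3 was closest to PTK7 (0.06) and the collagen gene COL1A2 (0.07), and RAD21 to ZBTB10 (0.05) and TTL (0.07). The closest to NIPBL were VPS13A (0.05) and SON (0.06), and to PDS5B PTBP3 (0.05) and ZFHX4 (0.06), all of which had their lowest mean in MetaICM. CTCF was closest to HAUS3 (0.04), with 29.3 CPM in control and 18.7 to 21.0 CPM elsewhere, and to DHX33 (0.05). The nearest genes of the 3 ring members were thus different ones.

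Promoter sequences were set beside these patterns for members that fell (SMC1A, SMC3, CTCF) and members that stayed near control (STAG1, WAPL). RAD21, which also fell, had no entry among the promoters available. They are the 250 bases before the RefSeq start (table build GRCh38.p14), placed by exact match on GRCh37 at chrX:53449678-53449927 (minus strand), chr10:112327203-112327452 (plus), chr16:67596179-67596428 (plus), chr3:136471221-136471470 (minus) and chr10:88281550-88281799 (minus), written 5′ to 3′. Capitals mark matches on either strand to an E2F motif (TTTCCCGC, TTTGGCGC or TTTCGCGC), the cell cycle homology region (CHR, TTTGAA) or the CCAAT box (CCAAT). The motifs do not overlap one another in the matches shown.
SMC1A: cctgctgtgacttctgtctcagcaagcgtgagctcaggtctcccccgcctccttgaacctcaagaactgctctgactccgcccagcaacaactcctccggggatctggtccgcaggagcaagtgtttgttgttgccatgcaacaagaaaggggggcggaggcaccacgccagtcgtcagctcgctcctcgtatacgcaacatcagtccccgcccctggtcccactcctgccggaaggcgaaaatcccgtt
SMC3: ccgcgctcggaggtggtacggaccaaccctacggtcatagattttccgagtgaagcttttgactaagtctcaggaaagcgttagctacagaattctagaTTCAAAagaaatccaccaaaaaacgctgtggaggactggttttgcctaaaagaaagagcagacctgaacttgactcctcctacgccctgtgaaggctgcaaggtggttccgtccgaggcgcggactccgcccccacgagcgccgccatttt
CTCF: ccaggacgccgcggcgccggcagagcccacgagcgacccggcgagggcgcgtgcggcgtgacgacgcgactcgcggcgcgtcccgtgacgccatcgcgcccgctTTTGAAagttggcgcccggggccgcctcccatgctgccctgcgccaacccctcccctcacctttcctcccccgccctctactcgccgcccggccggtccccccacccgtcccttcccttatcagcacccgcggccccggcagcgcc
STAG1: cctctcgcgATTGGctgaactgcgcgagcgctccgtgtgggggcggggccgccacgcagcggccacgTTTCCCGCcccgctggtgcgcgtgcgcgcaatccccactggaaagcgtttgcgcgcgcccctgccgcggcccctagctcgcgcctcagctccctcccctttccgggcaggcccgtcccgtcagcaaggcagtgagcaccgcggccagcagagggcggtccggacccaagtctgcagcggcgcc
WAPL: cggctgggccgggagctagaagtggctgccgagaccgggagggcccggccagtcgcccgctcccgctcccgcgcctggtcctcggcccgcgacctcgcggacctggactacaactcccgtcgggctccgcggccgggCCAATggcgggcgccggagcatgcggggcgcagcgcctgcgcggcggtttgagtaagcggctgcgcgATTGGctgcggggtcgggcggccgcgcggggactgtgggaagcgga

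SMC1A had 2 promoter entries and STAG2 had 3, and for each only the entry farthest upstream was searched. In that entry SMC1A held no match to any of the 3 motifs. SMC3 held a CHR match 151 bases before the start and CTCF a CHR match 146 bases before it. STAG1 held an E2F and a CCAAT match, and WAPL 2 CCAAT matches. Over the 9 members with a promoter in the table, 2 held an E2F match (STAG1 and NIPBL), 2 a CHR match and 5 a CCAAT match (STAG1, STAG2, WAPL, PDS5A and PDS5B), beside 2.32%, 13.3% and 32.0% of 35113 promoters. The promoters of SMC3 and SMC1A had 52.8% and 60.4% G and C, and the other 7 had 70.0% to 78.0%, beside a median of 58.0% over all promoters. A match is a string of letters and not a site shown to be in use.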

How the data were processed

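Factory RNA-Seq had been applied to IMR90 in 4 groups of 2 libraries, assigned from the sample titles; the extraction text in the labels describes whole-cell RNA and poly(A) selection, so the exon counts may include mature mRNA. The authors aligned read pairs to hg19 (GRCh37) with STAR 2.6.0c and deposited raw exon counts per RefSeq gene from featureCounts 1.6.3, taking primary alignments with both ends mapped, without strand and without pairs that fall on several genes. Intronic counts were not analysed here. The depth was 12095123 to 23166405 counts per library.

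From these counts, conditions were compared pairwise (4 libraries per fit) with edgeR 4.0.16 in R 4.3.3, using TMM, filterByExpr (minimum count 10), quasi-likelihood tests and p-values adjusted after Benjamini and Hochberg. CPM values used TMM factors over all 8 libraries. Log2 levels had a prior count of 2. The alternatives were DESeq2 1.42.0, its size factors, library totals, 2 other filters, 1 fit of all libraries, a replicate block, thinning, an adjusted p under 0.01 and each library left out; in the last, the lone library was assumed to vary like the other group. The fits were tested on simulated data. Genes named beyond the members were those behind counts of up to 5 and up to 4 called genes of largest log2FC per list. The 2 of most similar pattern to each called member were named as well. YY1, SMC5, NCAPH2, TEK, PECAM1, CDH5, PTPRC, CD14, COL3A1, VIM and S100A4 were added after their values were seen. The members and the 10 other lists (83 genes, from general knowledge) were chosen with earlier results of these data known. The result of 1 listed gene is not reported here.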

Additional observations from a re-analysis of the deposited data

How the results depend on the processing

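Across alternatives, 693 of 720 recomputed log2FC values of members kept their direction and side of the threshold, 16 changed sign, 8 lost a call and 3 gained one. Counts of called members held within 1.5 times in 73 of 78 cases. With a replicate block they were 3 and 4 for ICM 3 and 6 days against control, 0 between the times and 2 in each MetaICM comparison, so the block changed no call on a member, and SMC5/6 genes called higher at 3 days were 2 in place of 1. Deviations of same-numbered libraries correlated with r from −0.11 to 0.17. With 2 libraries per group, such values cannot show whether same-numbered libraries were paired. With each library left out, the count was 3 to 5 for ICM 3 days and 3 to 5 for ICM 6 days against control, 0 to 2 for MetaICM against control and 1 to 2 for MetaICM against ICM 3 days, which was also 1 with library totals. An adjusted p under 0.01 left every count of called members as it was.

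The sign changes lay in values near 0. For STAG1 at 3 days the log2FC was −0.0017 with DESeq2, −0.0017 with its size factors and −0.012 after thinning, and −0.037 to 0.036 with a library left out. PDS5A had 0.056 with library totals and −0.037 to 0.0046 with a library left out at 3 days, and −0.14 to 0.17 at 6 days. STAG2 at 6 days had 0.010 with library totals. Between 6 and 3 days PDS5B had 0.0035 with all genes kept, 0.00026 with the replicate block, 0.045 after thinning and −0.15 to 0.15 with a library left out, NIPBL −0.19 to 0.017, PDS5A −0.11 to 0.18 and CTCF −0.15 to 0.055. The cause was not tested. Counts over lists moved past 1.5 times in 50 of 468 cases and ratios past 1 SD in 18 of 90. With 2 libraries per group, differences near the 0.6 cutoff (CTCF, PDS5B, NIPBL) cannot be placed firmly on either side of it.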
